A study of Mus musculus with 113 samples.

Results

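The change from neuroectoderm to neural progenitors was examined in 8 of the 113 samples of the series, all of them whole cell populations of mouse R1 embryonic stem cells differentiated in SFEB culture, in which aggregates float in medium without serum. The members were chosen by collection time alone: the early window held the populations of 84, 92, 103 and 106 h, and the late window those of 126, 142, 144 and 216 h. The populations of 92, 103, 126 and 142 h belong to the first time series, and those of 84, 106, 144 and 216 h to a parallel series that was collected with the single cells. All 8 are unmodified R1 cells grown from the same kind of aggregate, with no knockout, transgene or added agent named for any group. The aggregates were taken apart on day 6 and replated in GMEM-N2 medium on dishes coated with PDL, laminin and fibronectin, so the 216 h population is the only one that was collected well after replating, and 144 h is the time of replating itself. Each time point is 1 library of a cell line in culture. The spread within a window therefore contains the change over time as well as the error of the assay, and no replicate of a single time point was analysed here.

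In the embryo the neural plate arises from the epiblast and first keeps a uniform epithelium of dividing neuroectodermal cells. These then become neural progenitors, or radial glia, which divide, keep themselves undifferentiated through Notch signalling, and release neurons under proneural transcription factors such as the neurogenins. In Notch signalling a ligand (Dll1, Jag1) on one cell meets a receptor on its neighbour, the receptor's intracellular part joins the DNA-binding protein RBPJ, and genes of the Hes and Hey families are switched on and hold proneural genes down.

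The values are FPKM (fragment counts scaled to transcript length and to the mapped fragments of the library) after ComBat batch correction by the authors, analysed as log2(FPKM + 1). A difference below is the late window minus the early window on that scale, from a limma fit with the series as a term, and is given with its standard error (SE). A gene was called when its Benjamini-Hochberg adjusted p was below 0.05 over the 12093 genes with an FPKM above 1 in at least 4 of the 8 populations. A gene at 1 FPKM or below in a whole window passes only if the whole other window is above 1, so its windows cannot overlap. The summed FPKM of a population was between 415100 and 488900, and 11649 to 12181 genes were above 1 FPKM. The paper states only a minimum number of reads per library, for the single cells and the parallel populations, the files give no read count for any population, and in whole populations fewer cells of a type and less RNA per cell cannot be told apart.

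The 8 populations lay along 1 main axis that followed time within each series. The first principal component held 68.3% of the variance and ran from -58.7 at 84 h to 61.5 at 216 h. The parallel series stood behind the first series on it: the 106 h population was at -39.7 and the 103 h population at -14, and the 144 h population was at 5.71 and the 142 h population at 46.9. In its correlation over the tested genes the 144 h population was nearly as close to the early populations of 92 h (r = 0.966), 103 h (r = 0.965) and 106 h (r = 0.964) as to the late population of 126 h (r = 0.971), and its correlations with the late populations of 142 h (r = 0.952) and 216 h (r = 0.927) were lower than these. The series term removes a shift that both windows of a series share, and a lag of the parallel series and an effect of its correction by ComBat cannot be told apart here.

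**Figure D1:**
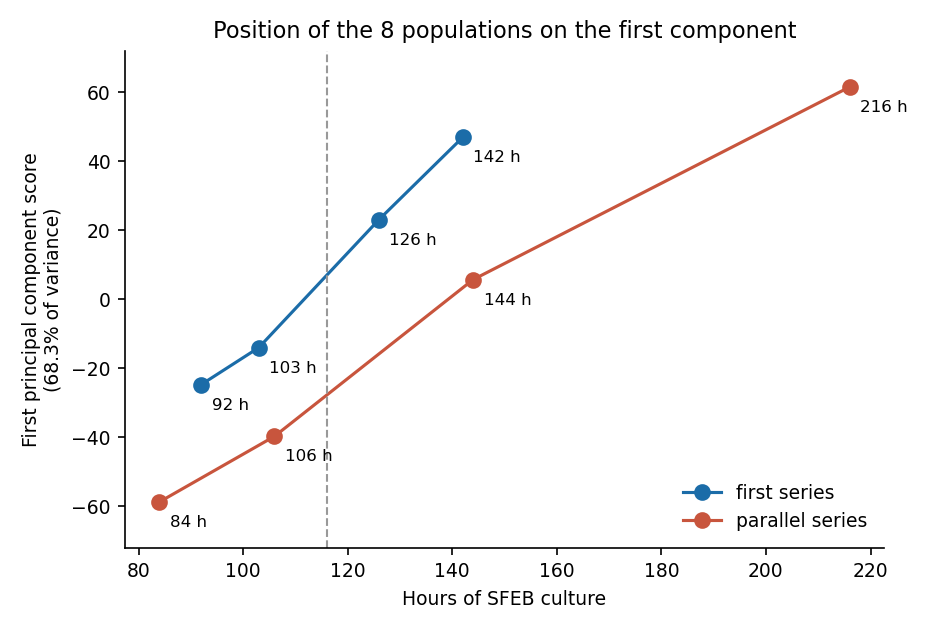
Score of each population on the first principal component of log2(FPKM + 1) over 12093 genes (y axis, no unit) against hours of SFEB culture (x axis), with 1 point per population and a line for each series; the dashed line divides the windows. Both series move upward with time, and the 144 h population of the parallel series, at 5.71, lies below the 126 h population of the first series, at 23.1.

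The labels were checked against marker genes. Of the 4 pluripotency markers all were called lower in the late window (Pou5f1, Nanog, Utf1 and Zfp42). Of 8 progenitor markers 6 were called higher (Pax6, Nes, Fabp7, Hes5, Zeb2 and Vim), and Slc1a3 and Zfp521 were not called. Of 5 neuron markers 4 were called higher (Tubb3, Dcx, Map2, listed as Mtap2, and Elavl3), so the late populations carried neuronal RNA next to progenitor RNA. Of 9 neuroectoderm markers 6 were tested, Sox3 was called higher, Zic2 was called lower, and Sox1, Sox2, Otx2 and Lhx5 were not called. Pou5f1, the central pluripotency factor, was still at 114 to 387 FPKM in the early window and at 23.7 to 117 FPKM in the late window, so neither window was free of pluripotency RNA.

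Among the 12093 genes 4038 were called (33.4% of the genes tested), 2514 of them higher (20.8%) and 1524 lower (12.6%) in the late window. These shares are the background for the count of each gene list below. With a difference of at least 2-fold in addition, 1061 genes remained (8.77%), of which 768 were higher (6.35%) and 293 lower (2.42%). The windows did not overlap for 846 of these 1061 genes, which is 79.7% of them, against 31.9% of all genes tested. The 1061 genes were selected on the same values, so a high share is built into the selection and is no added support. The count rests on few populations. It was 268 (2.22% of the genes tested) without the 142 h population, 915 without the 84 h population, 2161 without the 92 h population and 2243 without the 106 h population, and each of the 268 genes was also in the full count with the same direction. Of 151 called genes followed here, 48 kept their call when any 1 population was left out. The other 103 lost it without the 142 h population, 66 of them also without the 84 h population and 44 also without at least 1 of the other 6. A call is said to hold below only where it belongs to the 48. The balance of the calls rests on scaling: 62.3% of the calls were higher with the values as deposited and 39.4% when the populations were set to a common median, which moved the median difference of all genes by -0.152. With quantile normalization the share was 48.3%.

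The rises and falls ranked here are those of called genes whose windows did not overlap. Among the largest rises were transcription factors and RNA-binding proteins of young neurons. Nhlh2, a bHLH factor of newly born neurons, was at 0, 1.52, 1.24 and 0.104 FPKM at 84, 92, 103 and 106 h and at 9.85, 29.7, 13.7 and 32.1 FPKM at 126, 142, 144 and 216 h. Its difference was 3.67 ± 0.43 (SE), with an adjusted p of 0.00722. Every late population was above every early one, as the ranking requires, and the call held. Scrt2, a zinc-finger repressor of neuronal precursors, rose by 3.62 ± 0.52, and Elavl4 and Celf3, RNA-binding proteins of neurons, by 3.54 ± 0.51 and 3.53 ± 0.58. The early level of these genes is not well known: 9 of 11 of the largest rises were at 0 in the 84 h population after values below 0 were set to 0, as were 69 of all genes tested, 59 of them among the 768 risers. In the 106 h population 24 tested genes were at 0, 20 of them among the 768 risers. At 92 and at 103 h 0 of the 768 risers were at 0. The part of the batch correction in these values was not tested.

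Dcx, which binds microtubules in migrating neurons, and Stmn4, a neuronal stathmin, rose together with these factors. Dcx was at 0, 3.26, 3.08 and 0 FPKM in the early populations and at 17.2, 44.8, 14.4 and 89 FPKM in the late ones. Its difference was 4.00 ± 0.66 (adjusted p = 0.011), with 5.22 in the parallel series and 2.79 in the first series, a gap that was not called (interaction adjusted p = 0.913). Stmn4 rose by 3.66 ± 0.72. The calls of Dcx, Stmn4 and Celf3 were lost without the 142 h population, at adjusted p values of 0.0503, 0.0558 and 0.0503. The largest of the ranked rises, 4.37 ± 0.38, was that of 2610017I09Rik, which has no protein name, and this call held.

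Fabp7, Id4, Ednrb and Nr2f1 were also among the largest rises. Fabp7, the brain fatty acid-binding protein of radial glia, was at 10.4, 59.9, 93.5 and 19.1 FPKM in the early populations and at 207, 444, 213 and 695 FPKM in the late ones. It was the most abundant of them, with late values from 207 FPKM upward, and rose by 3.34 ± 0.62 (adjusted p = 0.0129, and 0.0538 without the 142 h population). Id4, an inhibitor of bHLH factors that is found in neural progenitors, rose by 3.57 ± 0.40, from at most 4.21 FPKM to at least 24.2 FPKM. Ednrb, the endothelin receptor B, rose by 3.76 ± 0.40. Nr2f1, an orphan nuclear receptor that patterns the cortex, rose by 3.33 ± 0.56, and its adjusted p was 0.0503 without the 142 h population.

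**Figure D2:**
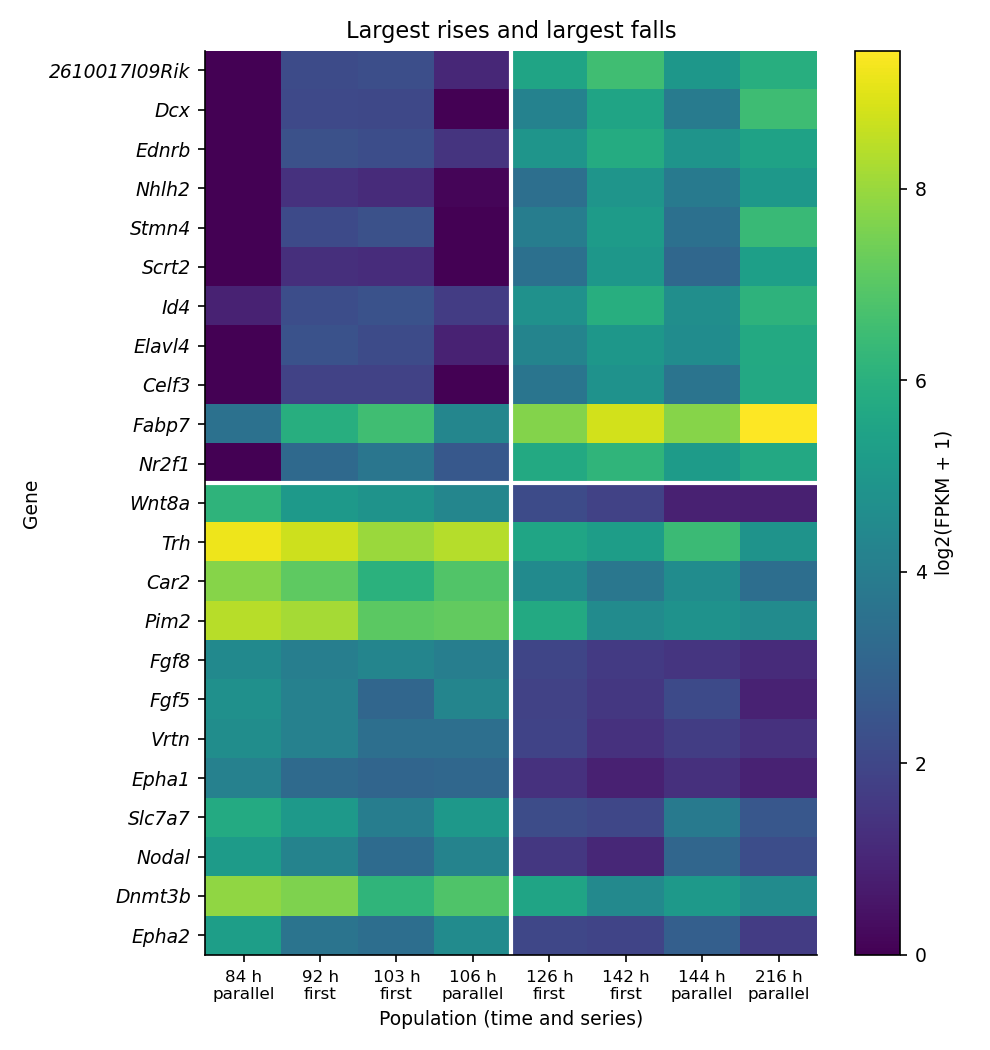
Heat map of log2(FPKM + 1), from 0 in dark violet to above 8 in yellow, for 11 of the largest rises (upper block) and the 12 largest falls (lower block) among called genes whose windows do not overlap, with genes as rows and the 8 populations as columns in order of time and labelled by series. The white lines divide rises from falls and the early from the late window, and the 84 h column is at 0 for 9 of the 11 rises.

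Among called genes whose windows did not overlap, the largest fall was that of Wnt8a. The growth factor genes Fgf8, Fgf5 and Nodal were also among the 12 largest falls of this kind. Wnt8a, a Wnt ligand of the early embryo, was at 70.4, 33.8, 28.1 and 19 FPKM at 84, 92, 103 and 106 h and at 3.46, 2.63, 0.814 and 0.795 FPKM at 126, 142, 144 and 216 h, a difference of -3.69 ± 0.42 (adjusted p = 0.00719). Fgf8, a growth factor that later patterns the midbrain and hindbrain, was at 21.1, 15.4, 18.7 and 15.6 FPKM early and at 2.95, 2.04, 1.75 and 1.21 FPKM late. It fell by 2.66 ± 0.19 with an adjusted p of 0.00175. Fgf5, the classical epiblast growth factor, was at 25.9, 16.6, 7.66 and 18.9 FPKM and then at 2.62, 1.89, 3.37 and 0.877 FPKM, and Nodal, a TGF-beta ligand that keeps the epiblast pluripotent, went from 8.97 to 35.3 FPKM to 1.07 to 7.62 FPKM. The differences were -2.47 ± 0.36 for Fgf5 and -2.26 ± 0.31 for Nodal, and both calls, like those of Wnt8a and Fgf8, held.

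The other large falls were of varied function. Trh, which encodes thyrotropin-releasing hormone, was the most abundant of them, at 259 to 595 FPKM early and at 28 to 84.8 FPKM late, and fell by 3.06 ± 0.34. Car2, a carbonic anhydrase, fell by 2.85 ± 0.38 and Pim2, a serine/threonine kinase, by 2.79 ± 0.39. Dnmt3b, a de novo DNA methyltransferase, was at 231, 197, 72.1 and 113 FPKM and then at 45.2, 20.9, 33.2 and 22.4 FPKM, a difference of -2.22 ± 0.39 with an adjusted p of 0.012 (0.0538 without the 142 h population). The receptor tyrosine kinases Epha1 and Epha2 fell by 2.30 ± 0.25 and 2.11 ± 0.33, the amino acid transporter Slc7a7 by 2.30 ± 0.34 and Vrtn by 2.33 ± 0.29. Of these 23 genes with large changes, 17 kept their call without any 1 population, and the other 6 lost it only without the 142 h population.

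**Figure D3:**
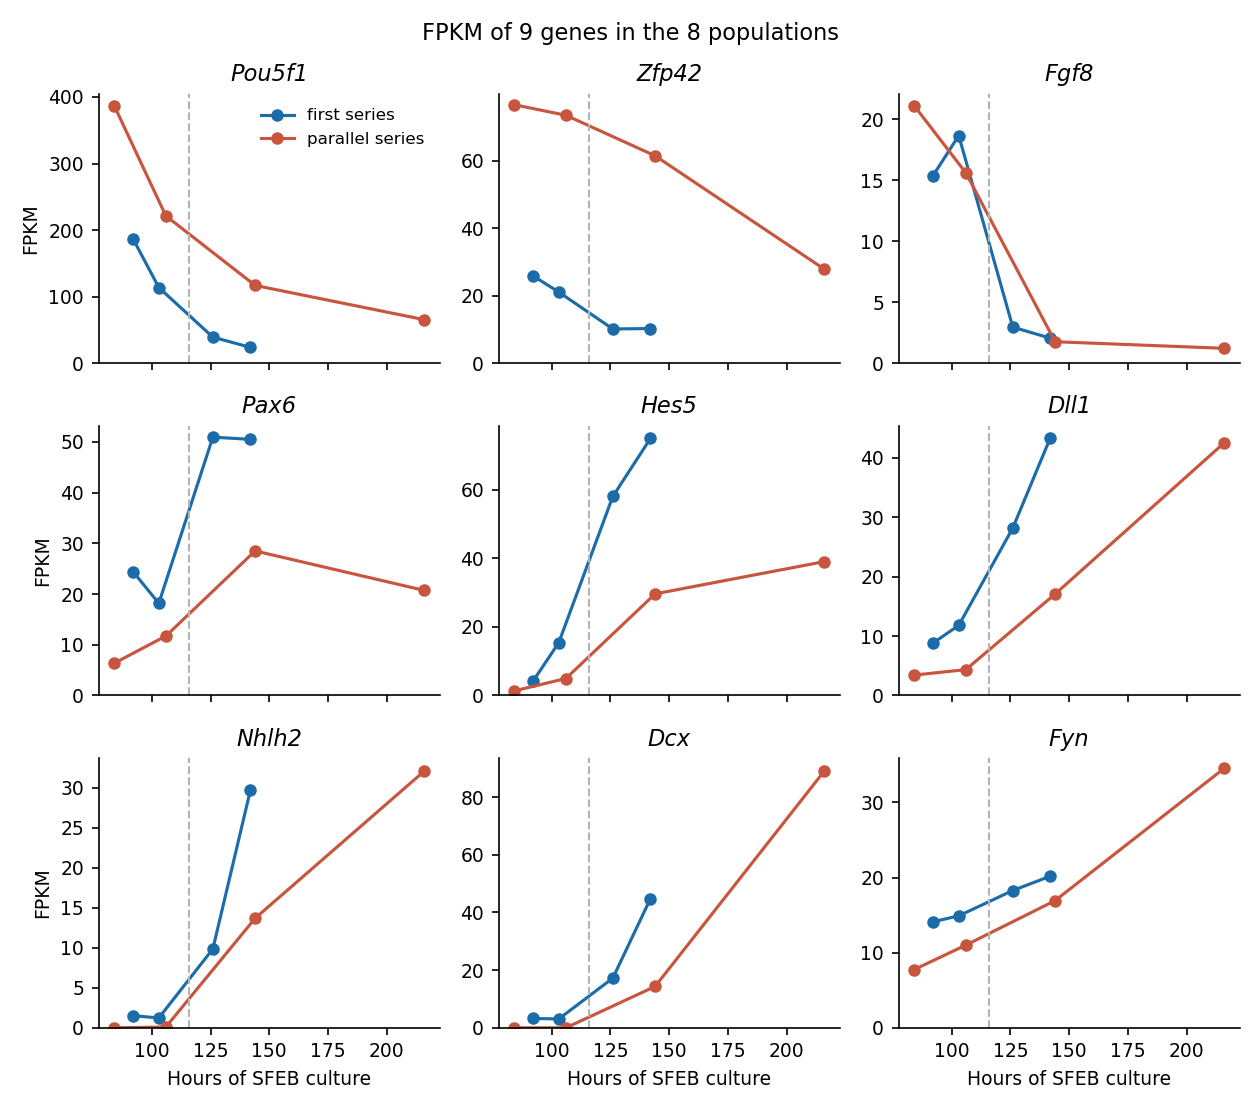
FPKM of 9 genes (y axes, linear and starting at 0, with a scale for each gene) against hours of SFEB culture (x axis), with 1 point per population and a line for each series; the dashed lines divide the windows. Pou5f1 and Zfp42 stay higher in the parallel series than in the first series, Fgf8 follows nearly the same course in both, and Dll1, Nhlh2 and Dcx are higher in each late population than in each early one.

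Of 20 tested pluripotency genes 17 were called lower and 0 higher, with a median difference of -1.21 against 0.0581 over all genes tested, and 14 of them fell at least 2-fold. For 5 of the 20 every late population was below every early one, which was so for 10.8% of all genes tested. Pou5f1 was not among them: it was at 387 and 221 FPKM at 84 and 106 h, at 187 and 114 FPKM at 92 and 103 h, at 39 and 23.7 FPKM at 126 and 142 h, but at 117 FPKM at 144 h and 65.3 FPKM at 216 h. Its difference of -1.98 ± 0.29 (adjusted p = 0.00937) was made of -2.22 in the first series and -1.73 in the parallel one, and the call held.

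Zfp42, Esrrb and Klf4, chosen here after their values were seen, were higher in the parallel series in both windows, a difference between the series that was not tested and that comes with different hours of sampling. Zfp42 (Rex1), a marker of naive stem cells, was at 25.9, 21, 10.1 and 10.2 FPKM at 92, 103, 126 and 142 h and at 76.5, 73.4, 61.4 and 27.8 FPKM at 84, 106, 144 and 216 h. Its difference was -0.98 ± 0.22 (adjusted p = 0.0167), and the call was lost without the 84 h or the 142 h population. Esrrb, a nuclear receptor of the naive network, was at 3.64 to 8.03 FPKM in the first series and at 24.8, 27.5, 26.8 and 9.63 FPKM in the parallel series, and Klf4 was at 0.413 to 0.729 FPKM in the first series and at 3.14 to 4.02 FPKM in the parallel series. Nanog was at 142, 88, 44.9 and 13.9 FPKM at 84, 106, 144 and 216 h in the parallel series and at 82.6, 49.7, 18.9 and 14.6 FPKM at 92, 103, 126 and 142 h in the first series. Esrrb and Klf4 were not called over the windows, and Lin28b, an RNA-binding protein that blocks let-7 maturation, was not called either. The number of pluripotency genes called lower was 2 without the 142 h population, 6 without the 84 h population, 8 without the series term and 9 in the first series alone.

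Of 16 tested genes of the epiblast and early neuroectoderm 7 were called lower and 2 higher, against 12.6% and 20.8% of all genes tested. Next to Fgf5, among the lower genes were the zinc-finger factors Zic2 (-1.28 ± 0.22) and Zic5 (-1.25 ± 0.26), the POU factor Pou3f1, and the epithelial adhesion genes Cdh1 and Epcam. Cdh1, which encodes E-cadherin, was at 124, 80, 31.6 and 82.7 FPKM and then at 15.2, 8.92, 43.9 and 14.1 FPKM, so the 144 h population overlapped with the early window. The neural adhesion gene Cdh2 (N-cadherin) was at 11.7 to 52 FPKM early and at 48.9 to 89.8 FPKM late and was called higher (1.25 ± 0.34). Sox1 and Sox2, which mark neuroectoderm and progenitors alike, were not called. Sox1 was at 44.7, 51.4, 48.4 and 33.6 FPKM in the first series, and only the 84 h population, at 11.4 FPKM, was clearly lower than the other 7. The number of lower genes was 1 without the 142 h population and 4 without the 84 h population, and the number of higher genes was 0 without the 84 h, the 92 h or the 142 h population and 1 without the 126 h or the 144 h population.

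Of 28 tested progenitor and radial glia genes 18 were called higher and 0 lower, with a median difference of 1.39. The POU and COUP transcription factors rose most after Fabp7, Id4, Ednrb and Nr2f1. Pou3f2 (Brn2) was at 0, 4.31, 8.96 and 2.42 FPKM and then at 28.7, 47.4, 24.6 and 36.1 FPKM, and Pou3f3 and Nr2f2 rose by 3.09 ± 0.31 and 3.01 ± 0.39. Vim, an intermediate filament gene of neural progenitors, was at 91.2 to 151 FPKM early and at 294 to 674 FPKM late (1.95 ± 0.25), and Nes, another such gene, was at 19.8 to 25.8 FPKM early and at 42.2 to 66.9 FPKM late (1.31 ± 0.16). Fgfr3, a fibroblast growth factor receptor of the ventricular zone, had the smallest adjusted p of all genes tested (0.00159): it was at 0.8 to 1.79 FPKM in the early window, at 14.1 to 25.3 FPKM in the late one, with a difference of 2.91 ± 0.17. Pax6, a homeodomain factor of the neural tube, was called (1.31 ± 0.19) and the call held, although the 216 h population, at 20.7 FPKM, was below the 92 h population, at 24.4 FPKM.

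Some glial genes of this list were called and others were not. Sox9, a factor of progenitors and glia, and Ptprz1, a receptor phosphatase of radial glia, were called higher (2.13 ± 0.38 and 2.13 ± 0.56). The call of Sox9 was lost without the 142 h population, and that of Ptprz1 without the 84 h, the 92 h, the 106 h or the 142 h population (adjusted p up to 0.0819). Slc1a3, a glial glutamate transporter, was at 5.85 to 9.14 FPKM early and at 5.32 to 14.7 FPKM late (0.14 ± 0.26). The radial glia matrix gene Tnc was not called, and Nfia and Nfix, factors of gliogenesis, were above 1 FPKM in fewer than 4 populations. Nfia was at 0.131 to 0.284 FPKM early and at 0.993 to 3.35 FPKM late, so its windows did not overlap. Without the 142 h population 9 of the 28 genes were called higher, and at least 15 were when any other population was left out.

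Proneural and neurogenic factors had the highest share of rises among the lists described here, closely followed by the neuronal cytoskeleton genes (26 of 30). Without the 144 h population the order turned (23 of 26 against 27 of 30). Of 26 tested proneural and neurogenic genes 23 were called higher and 0 lower, with a median difference of 2.21. For 21 of the 26 every late population was above every early one, which was so for 21.1% of all genes tested. Ebf2, Onecut1, Myt1 and St18 were below 1 FPKM in every early population, so the filter fixed their separation. Neurog1 was at 0 to 1.91 FPKM early and at 10.4, 10.1, 6.95 and 10.8 FPKM late (2.54 ± 0.24, adjusted p = 0.00525), and Neurog2 rose by 2.35 ± 0.35. Nhlh1, which acts downstream of the neurogenins, rose by 3.04 ± 0.28. Myt1, a zinc-finger factor that counters Notch signalling in new neurons, rose by 2.86 ± 0.44, Gadd45g, a stress-response gene that is also found in newborn neurons, by 2.41 ± 0.32, and Sox11, a SoxC factor of committed precursors, by 1.50 ± 0.27. The bHLH factor Neurod1 was called at a smaller difference (0.95 ± 0.22), and Eomes, Ebf1 and Btg2 were not called. The count was 14 without the 142 h population and at least 19 without any other.

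Genes for the neuronal cytoskeleton followed: 26 of 30 were called higher, with a median difference of 1.79. Tubb3, the neuronal beta-tubulin, was at 35.3, 78.7, 79.4 and 35 FPKM and then at 224, 430, 223 and 511 FPKM (2.59 ± 0.35, adjusted p = 0.00832), a call that held. The medium neurofilament gene Nefm rose by 3.19 ± 0.56, the microtubule-associated Map2 by 2.95 ± 0.61, the growth-cone gene Gap43 by 2.35 ± 0.58 and the tau gene Mapt by 2.79 ± 0.79. Mapt was at 3.17 FPKM at 144 h and at 54.8 FPKM at 216 h, and Stmn2, which was not called, at 76.4 FPKM at 144 h and 230 FPKM at 216 h. Nefh, the heavy neurofilament gene of mature axons, was called lower, at 1.84 to 5.68 FPKM early and 0.57 to 2.42 FPKM late. These calls rested on few populations, with 4 genes higher without the 142 h population, 10 without the 84 h population and 15 without the 106 h population. Nefh lost its call without the 84 h or the 142 h population.

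Synaptic and transmitter genes were lower in level. Of 23 tested genes 11 were called higher and 0 lower, and the median difference was 1.21. Snap25, a SNARE protein of synaptic vesicle release, was at 0.329 to 1.9 FPKM early and at 4.15, 8.34, 4.42 and 25.2 FPKM late, and Slc17a6, the vesicular glutamate transporter 2, was at 0.18 to 0.758 FPKM early and at 1.84 to 7.9 FPKM late. Gad1, which makes GABA, was at 0.126 to 0.968 FPKM early and at 1.64, 3.11, 1.67 and 8.8 FPKM late (1.52 ± 0.39). Slc17a6 and Gad1 passed the filter only through the late window, so their windows could not overlap. The number of called genes was 0 without the 142 h population and also 0 without the 84 h population, 6 without the 106 h population, 17 without the 216 h population and 19 without the 144 h population. Of 28 tested axon guidance and adhesion genes 14 were called higher, among them the netrin receptor Dcc (2.86 ± 0.51), the secreted cue Slit1 (2.68 ± 0.75) and the adhesion molecule L1cam (2.32 ± 0.59). That count was 0, 5 and 8 without the 142 h, the 84 h and the 106 h population.

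The promoter windows of 4 genes of the Notch pathway are shown next, since these genes carry the changes that follow: Hes5 is the target that rose most, Dll1 and Dll3 are ligands that rose with the proneural factors, and Lfng encodes a glycosyltransferase that modifies Notch. Each line gives the 250 bases before the annotated start, 5′ to 3′ on the strand of the gene, from RefSeq on GRCm38.p6 (the expression files use mm9). Capitals mark TGGGAA or its reverse complement TTCCCA, the core of RBPJ sites, and CAGCTG, an E-box bound by proneural bHLH factors that reads the same on both strands. The windows are chr4:154960673-154960922 (plus strand) for Hes5, chr17:15376933-15377182 (minus strand) for Dll1, chr7:28301786-28302035 (minus strand) for Dll3 and chr5:140607091-140607340 (plus strand) for Lfng.
Hes5: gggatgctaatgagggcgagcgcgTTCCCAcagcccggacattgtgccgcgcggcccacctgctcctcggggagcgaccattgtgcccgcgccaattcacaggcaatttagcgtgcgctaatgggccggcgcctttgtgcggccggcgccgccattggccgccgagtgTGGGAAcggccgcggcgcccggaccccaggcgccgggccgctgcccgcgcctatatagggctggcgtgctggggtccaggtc
Dll1: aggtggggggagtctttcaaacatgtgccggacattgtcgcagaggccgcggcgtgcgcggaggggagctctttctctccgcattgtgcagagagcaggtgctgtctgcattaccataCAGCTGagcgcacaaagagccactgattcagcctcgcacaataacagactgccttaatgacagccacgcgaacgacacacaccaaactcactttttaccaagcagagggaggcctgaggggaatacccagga
Dll3: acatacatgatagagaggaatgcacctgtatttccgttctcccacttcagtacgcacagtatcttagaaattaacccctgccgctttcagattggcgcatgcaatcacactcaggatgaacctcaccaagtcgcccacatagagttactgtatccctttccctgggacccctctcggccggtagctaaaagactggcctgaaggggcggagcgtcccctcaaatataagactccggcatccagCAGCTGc
Lfng: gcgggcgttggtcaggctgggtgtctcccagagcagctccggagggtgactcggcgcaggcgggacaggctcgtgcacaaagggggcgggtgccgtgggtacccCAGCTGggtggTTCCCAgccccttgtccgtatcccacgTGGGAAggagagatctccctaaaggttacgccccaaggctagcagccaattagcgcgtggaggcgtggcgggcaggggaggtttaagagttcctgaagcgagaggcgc

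The Hes5 window holds 2 matches to the RBPJ core, which start 226 and 82 bases before the gene, and the Lfng window holds 2 of them and 1 E-box. The Dll1 and Dll3 windows each hold 1 E-box, and the other annotated start of Dll1 has neither motif in its window. Of the windows examined and not shown, that of Nrarp holds neither motif, those of Hes6 and Sox11 hold an E-box and those of Id4 and Fabp7 an RBPJ core. Such short motifs are frequent: TGGGAA or its complement was in 21.6% of all 32851 RefSeq windows of this length, in 20.1% of the 11082 windows of tested genes, in 19.4% of the 733 windows of genes that rose at least 2-fold and in 22.7% of the 278 windows of genes that fell at least 2-fold. CAGCTG was in 13% of all windows, 11.8% of those of tested genes, 16.2% of those of the risers and 15.8% of those of the fallers. Windows were found for 518 of the 768 risers and 201 of the 293 fallers. A match is a string of letters and no measured site.

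Among the Notch receptors Notch1 alone was called. It was at 7.67, 10.4, 8.83 and 11 FPKM early and at 20.6, 27.9, 25.1 and 26.6 FPKM late, a difference of 1.32 ± 0.14 (adjusted p = 0.00651). Every late population stood well above every early one. Notch3 was the most abundant receptor in the early window, at 32.1 to 51.8 FPKM, and was at 27.3 to 38.4 FPKM in the late one (-0.23 ± 0.14). Notch2 and Notch4 were not called.

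The ligands Dll1 and Dll3 rose with the proneural factors. Dll1 was at 3.43, 8.81, 11.8 and 4.35 FPKM early and at 28.2, 43.4, 17.1 and 42.5 FPKM late, a difference of 2.1 ± 0.31 (adjusted p = 0.00943) whose call held. Dll3, an inhibitory ligand of the same family, was at 5.83 to 8.22 FPKM and then at 15.7, 33.1, 18.5 and 38.5 FPKM (1.74 ± 0.28, and an adjusted p of 0.0503 without the 142 h population). The non-canonical ligands Dlk1 (2.07 ± 0.39) and Dner (2.52 ± 0.61) were also called higher, while Jag1 was at 0.65 ± 0.25 and Jag2 at -0.37 ± 0.15, both not called. In all, 5 of 10 tested receptors and ligands were called higher and 0 lower, and 3 were higher without the 142 h population. At a common median or with quantile normalization 1 was lower.

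Among the genes that modify or process Notch, 7 of 22 were called higher and 1 lower, against 20.8% and 12.6% of all genes tested. The fringe genes Mfng (1.31 ± 0.17) and Lfng (1.68 ± 0.36), the Deltex gene Dtx4 (1.32 ± 0.17) and Adam10 (1.00 ± 0.18), a protease that cuts the receptor, were among the former. Psen2, a subunit of the gamma-secretase, was at 7.45 to 9.37 FPKM early and at 3.78 to 5.64 FPKM late and was the 1 gene that fell. Rbpj itself was at 30.6 to 44.9 FPKM early and 36.2 to 49.1 FPKM late (0.11 ± 0.10). The number of rises was 2 without the 142 h population, and the fall of Psen2 was not called without it (adjusted p = 0.0597). The number of falls was 2 at a common median or with quantile normalization.

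Of the 4 tested target genes 3 were called higher. Hes5 was at 1.33, 4.13, 15.4 and 4.94 FPKM early and at 58.1, 75, 29.6 and 39.1 FPKM late (3.05 ± 0.40, adjusted p = 0.00787). Nrarp, a feedback inhibitor of Notch signalling, rose by 2.09 ± 0.26, from at most 11 FPKM to at least 27 FPKM, and Hey1 rose by 1.80 ± 0.33. The calls of Hes5 and Nrarp held, and Hey1 lost its call without the 142 h population (adjusted p = 0.0548). Hes1, which is expressed before the neural plate forms, was at 16.6 to 28.4 FPKM early and at 15.3 to 24.2 FPKM late, with a difference of -0.05 ± 0.11. The rise thus concerned Hes5, Hey1 and Nrarp and was not called for Hes1.

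Wnt ligands moved in both directions. While Wnt8a fell, Wnt7a, a ligand of the neural tube, rose from 0.0929 to 1.07 FPKM to 5.42 to 10.1 FPKM (2.54 ± 0.17, adjusted p = 0.00162), a call that held. Wnt7b, its close relative, was at 0.894, 1.51, 14.1 and 1.28 FPKM and then at 21.3, 42.9, 14.1 and 19.8 FPKM (2.72 ± 0.52), and Wnt5a rose by 1.85 ± 0.35. The receptor Fzd3, which guides axons, rose by 1.94 ± 0.31. The nuclear factors Tcf7 and Lef1, which transmit Wnt signals, fell by 1.26 ± 0.29 and 0.99 ± 0.22. In all, 6 of the 23 tested Wnt pathway genes were called higher and 2 lower, against 20.8% and 12.6% of all genes tested. The counts were 1 and 0 without the 142 h population, and the falls were 0 without the 84 h population, 4 without the 144 h population and 5 at a common median.

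In the Hedgehog pathway 5 of 14 genes were called higher and 1 lower, against 20.8% and 12.6% of all genes tested. Boc, a co-receptor, was at 2.7 to 11.5 FPKM early and at 27.8, 42.1, 15 and 12.5 FPKM late (1.61 ± 0.26). Ptch1 and Gli1, which are induced by Hedgehog signals, were higher in 2 populations of the parallel series than elsewhere: Ptch1 was at 35 FPKM at 106 h and 50.1 FPKM at 144 h and at 11.7 to 23.7 FPKM in the other 6 populations, and Gli1 at 9.9 and 10.8 FPKM and at 1.45 to 4.2 FPKM in the others. Neither was called. The number of rises was 0 without the 142 h population, 2 without the 84 h or the 92 h population or with quantile normalization, and 3 without the 103 h population or at a common median. The number of falls was 2 without the 144 h population or at a common median and 0 without any other population. Of 19 BMP pathway genes 5 were called higher, with Id4 and the receptor Bmpr1b (1.29 ± 0.32) at the top, and 2 lower, the inhibitor Fst (-1.75 ± 0.48) and the pseudoreceptor Bambi (-0.55 ± 0.17), which is near the 20.8% and 12.6% of all genes tested. The number of rises was 1 without the 142 h or the 84 h population, 2 without the 92 h population and 3 at a common median. The number of falls was 0 without the 84 h, the 106 h or the 142 h population, 1 without the 92 h, the 103 h, the 126 h or the 216 h population and 3 at a common median. The BMP targets Id1, Id2 and Id3 were not called.

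Genes of the cell cycle changed in part. Of 12 tested genes of D cyclins, their kinases, Cdk inhibitors and retinoblastoma proteins 6 were called higher and 0 lower. Cdkn1c (p57), which stops the cycle of differentiating precursors, was at 12.8, 26.7, 15.2 and 19.2 FPKM and then at 74.4, 147, 71.5 and 135 FPKM (2.45 ± 0.30, adjusted p = 0.00747), and Rb1, which encodes the retinoblastoma protein, rose by 1.18 ± 0.17. Both calls held. Ccnd2, the D cyclin of radial glia, was at 18.4 to 47.8 FPKM early and at 75.4 to 86 FPKM late (1.49 ± 0.25, adjusted p = 0.0506 without the 142 h population), while Ccnd1 and Ccnd3 were not called. Without the 142 h population 2 genes were called higher.

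Of 34 tested genes of DNA replication and the entry into S phase 9 were called lower and 1, E2f1, higher, and 24 were not called, against 12.6% lower and 20.8% higher of all genes tested. The median difference was -0.333, and no called member reached 2-fold. Ccne1 (cyclin E1) was at 58.3 to 76.3 FPKM early and at 25.7 to 41.9 FPKM late (-0.89 ± 0.17), and the helicase subunits Mcm2, Mcm3, Mcm4 and Mcm5 differed by -0.57 ± 0.16, -0.56 ± 0.18, -0.48 ± 0.14 and -0.58 ± 0.16. The number of falls was 17 at a common median, 14 without the 144 h population, 3 without the 92 h or the 103 h population, 1 without the 84 h or the 106 h population and 0 without the 142 h population. The call of E2f1 was lost without any population but that of 216 h. Of 38 genes of the spindle and mitosis only Cdc20, an activator of the anaphase-promoting complex, was called (lower, -0.50 ± 0.13), and this call was lost without the 84 h, the 106 h or the 142 h population. Without the 216 h population 5 of the mitosis genes were called higher, without the 126 h population 1 was, without the 144 h population 3 were higher and 5 lower, and at a common median 6 were lower.

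Most called genes for regions of the neural tube rose. Of 24 tested midbrain, hindbrain and spinal patterning genes 12 were called higher and 2 lower. Gbx2, a hindbrain homeobox gene, was at 20.3, 23.7, 17.3 and 13.9 FPKM and then at 6.45, 7.65, 7.44 and 4.97 FPKM (-1.37 ± 0.17) and fell with Fgf8, and both calls held. Which cells lost the RNA of Gbx2 and Fgf8 was not tested. Cyp26b1, which degrades retinoic acid in the hindbrain, was at 0.678 to 2.29 FPKM early and at 15.5, 33.1, 18.1 and 29.3 FPKM late (3.19 ± 0.29), and Dbx1, Meis1, Pax3, Irx5 and Pax7 rose by 2.55 ± 0.59, 1.93 ± 0.45, 1.98 ± 0.44, 1.70 ± 0.20 and 1.59 ± 0.35. Pax3 and Pax7, factors of the dorsal neural tube, were highest at 142 h, at 29.5 and 9.42 FPKM, and at 4.36 and 1.31 FPKM at 216 h. The number of rises was 2 without the 142 h population, 4 without the 84 h population and 7 without the 92 h population.

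Of 10 tested anterior Hox genes 5 were called higher and 1 lower. Hoxb3, Hoxb4, Hoxa3, Hoxa2 and Hoxa4 were those called higher, with differences of 2.19 ± 0.42, 1.78 ± 0.29, 1.69 ± 0.42, 1.61 ± 0.32 and 1.03 ± 0.31. Hoxb3 was at 1.63, 7.3, 1.91 and 6.82 FPKM and then at 14.3, 24.6, 20 and 24.9 FPKM. Hoxb1, Hoxa5 and Hoxb8 were not called. The number of rises was 0 without the 142 h population and 2 without the 84 h population, and the number of falls was 0 without the 84 h, the 92 h or the 142 h population.

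Of 9 tested forebrain and eye field factors 2 were called higher, Lhx2 (1.64 ± 0.39) among them, a share near the 20.8% of all genes tested. Their number was 0 without the 142 h or the 92 h population, 1 without the 84 h or the 106 h population and 5 without the 103 h population. Otx1 and Wnt8b, genes of the anterior neural tube, were at 20.8 and 8.53 FPKM at 103 h and at most at 1.64 and 1.13 FPKM in the other early populations. In the late window Otx1 was at 4.74 to 10.6 FPKM and Wnt8b at 1.97 to 10 FPKM, and neither was called. Wnt1 and En1, of the midbrain and hindbrain list, were also highest of the early window at 103 h, at 12.8 and 9.19 FPKM.

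Fyn, the Src family kinase at the centre of the gene network that the study drew, was at 7.75, 14.1, 14.9 and 11 FPKM and then at 18.3, 20.2, 16.9 and 34.5 FPKM. The windows did not overlap, and the difference was 0.84 ± 0.26 with an adjusted p of 0.0407. The call was lost when the 84 h, 92 h, 103 h, 106 h or 142 h population was left out (adjusted p up to 0.117), at a common median and with quantile normalization. Of 21 tested genes of that network 10 were called higher and 0 lower. Next to Fyn, among these were Csnk1e, Stk36, Dner, Hey1, Dtx3, Dvl3, Stmn1 and App, and the amyloid precursor gene App was at 21.6 to 34.9 FPKM early and at 49.7, 57.9, 67.4 and 119 FPKM late. This list was chosen by the study with these samples in view and is no independent evidence of a direction. The number of rises was 1 without the 142 h population and 4 without the 84 h population. The number of falls was 2 without the 144 h population or at a common median. No other Src family kinase was called.

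In the BAF chromatin remodelling complex some subunits are exchanged when progenitors become neurons. Ss18l1, Smarcd3, Dpf1 and Smarca2 were called higher out of 10 tested genes, with differences of 1.34 ± 0.28, 1.48 ± 0.34, 1.24 ± 0.34 and 0.97 ± 0.31. The progenitor subunits Ss18, Phf10 and Actl6a were not called, and Actl6a was at 89.1 to 94.4 FPKM early and at 61 to 85.1 FPKM late (-0.29 ± 0.10, adjusted p = 0.0546). Actl6b, the neuronal counterpart of Actl6a, did not pass the filter and was at 0 to 0.585 FPKM early, at 0.899 to 3.04 FPKM from 126 to 144 h and at 13.4 FPKM at 216 h. The number of called subunits was 0 without the 142 h or the 84 h population, 1 without the 106 h population and 2 without the 92 h population.

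**Figure D4:**
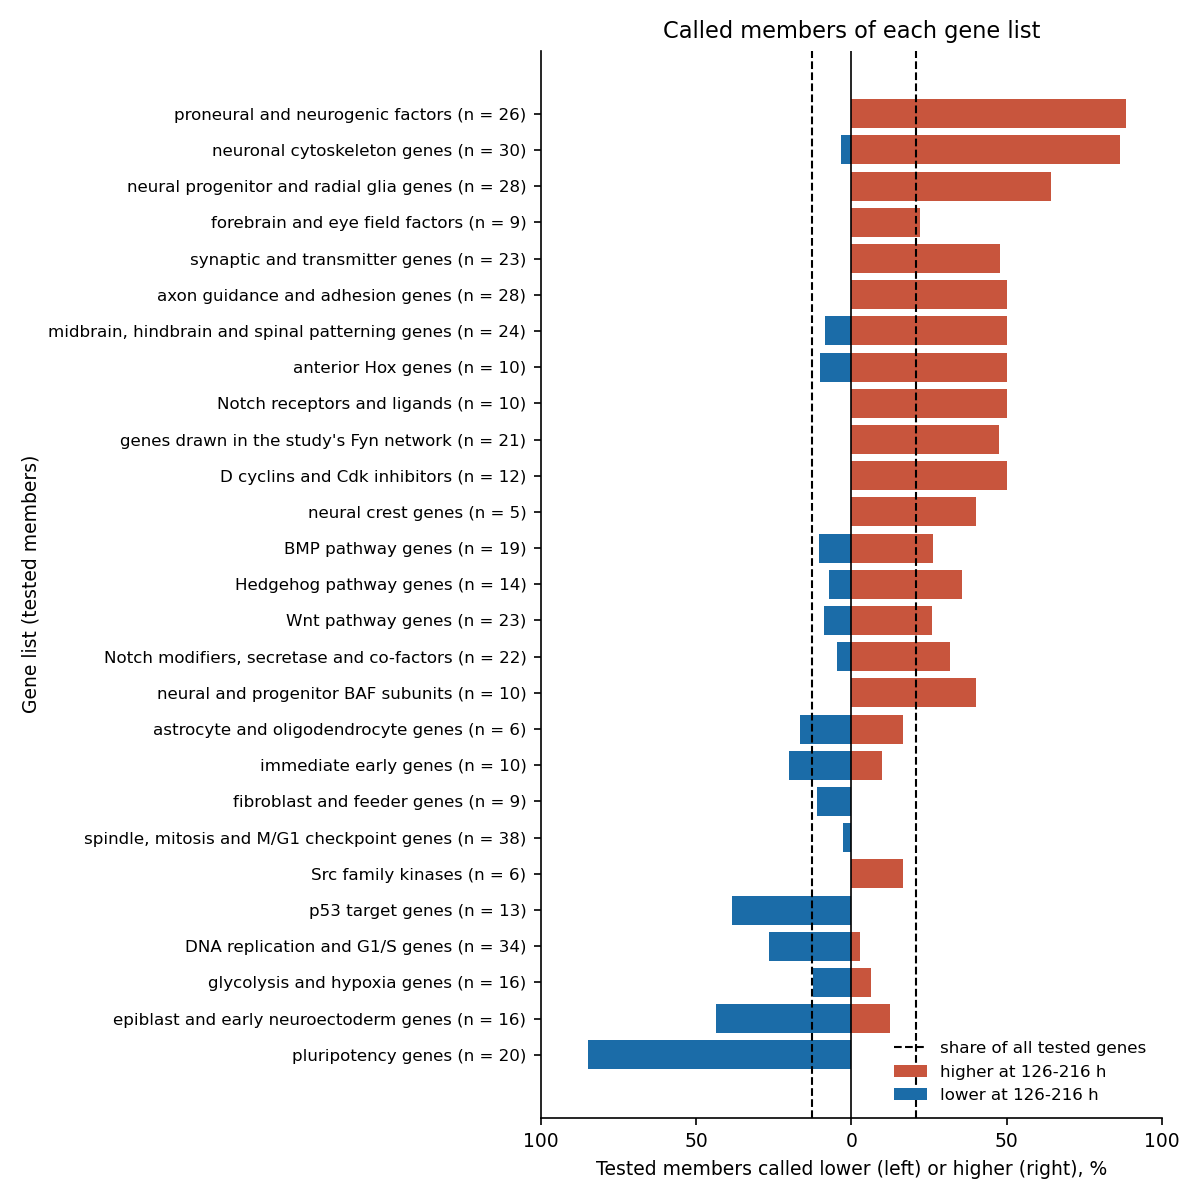
Share of the tested members of each gene list called higher (right, red) or lower (left, blue) in the late window, in percent, for the lists with at least 5 tested members, ordered by their median difference; the dashed lines mark 20.8% and 12.6%, the shares over all 12093 genes. Proneural, cytoskeletal and progenitor genes extend farthest to the right and pluripotency genes farthest to the left.

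Calls among markers of other cell types are to be read against the 33.4% of all genes tested that were called. Of 6 tested astrocyte and oligodendrocyte genes 1 was called higher (Slc1a2) and 1 lower (Gja1), and of 5 neural crest genes 2 were higher (Ngfr among them). Of 3 tested mesoderm genes 1 was lower (Myl7), of 2 endoderm genes 1 was higher (Cxcr4, which neural cells also express), and of 9 fibroblast genes 1 was lower (Tagln). The summed FPKM of the fibroblast list was 101 to 141 in the early window and 44.9 to 162 in the late one. Many defining markers of these lists (Sox10, Gfap, Aqp4, Sox17 and Mesp1) were not analysed here. There was no value for 6 of 14 astrocyte and oligodendrocyte genes, 8 of 14 mesoderm genes and 9 of 14 endoderm genes. The counts therefore say little about the presence of these cell types. The call of Tagln held, and the other calls of these lists were lost without the 142 h population. Of the astrocyte and oligodendrocyte genes 3 were higher without the 103 h population and 2 lower without the 216 h population. Of the mesoderm genes 2 were lower without the 144 h population, and of the fibroblast genes 2 without the 216 h population.

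Of 13 tested p53 target genes 5 were called lower (Perp, Pmaip1, Phlda3, Bax and Sesn2) and 0 higher, with a median difference of -0.133. Perp, a cell adhesion and apoptosis gene, differed by -1.72 ± 0.41 and Pmaip1 (Noxa), a BH3-only apoptosis gene, by -1.61 ± 0.29, and the count was 1 without the 142 h population, 2 without the 84 h population and 3 without the 106 h population. Of 16 tested glycolysis and hypoxia genes Vegfa was called higher (1.21 ± 0.34), and Slc2a1, a glucose transporter (-1.31 ± 0.36), and Eno1, an enolase (-0.93 ± 0.24), were called lower, against 20.8% higher and 12.6% lower of all genes tested. These 3 calls were lost without the 84 h, the 92 h or the 142 h population. In the list, 4 genes were lower without the 144 h population, without the 216 h population or at a common median, whereas in the first series alone 4 were higher and 0 lower. Of 10 tested immediate early genes Jund was called higher (0.92 ± 0.23) and Junb (-0.71 ± 0.14) and Ier2 (-0.79 ± 0.13) lower. All 3 calls were lost without the 142 h population, and that of Jund also without the 84 h, the 92 h or the 106 h population. Without the 144 h population 2 genes of the list were higher.

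The 216 h population stood apart from the others in several groups. It had 15 genes at least 4-fold above each of the other 7 populations on FPKM + 1, while no other population had any. In the other direction the 84 h population had 7 genes at least 4-fold below each of the others, the 216 h population had 2 and the rest had 0. The 15 genes included the secretory granule genes Chgb (90.3 FPKM, at most 7.63 elsewhere) and Scg2 (24 FPKM, at most 4.57 elsewhere), the collagen gene Col3a1 (33.9 FPKM, at most 2.91 elsewhere) and the immediate early gene Fos (23.2 FPKM, at most 2.15 elsewhere). Egr1, another immediate early gene, was at 54.9 FPKM and at 5.68 to 14.5 FPKM elsewhere, and Ldha, a lactate dehydrogenase subunit, was lowest at 185 FPKM, with 430 to 860 FPKM elsewhere. Fos, Egr1, Col3a1 and Ldha were not called over the windows. Whether the replating or the later time sets this population apart cannot be told apart here. Without it 3833 genes were called, and 1032 of the 1061 genes called at 2-fold or more were among them.

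The directions were compared with the other cultures of the series, which did not enter the fit. In adherent monoculture, the last 4 populations, up to 216 h, were set against the 2 that preceded them. Of the genes that rose at least 2-fold in SFEB culture and were in that file, 95.8% were higher in the later adherent populations, against 56.1% of all genes tested, and of those that fell at least 2-fold 75.4% were lower, against 43.9%. In the SFEB single cells the mean over the cells of 144 and 216 h was set against that over the cells of 84 and 106 h. The single-cell file holds 529 of the 768 risers and 275 of the 293 fallers. Of those in the file, 90.5% of the risers were higher (49.7% of all tested genes in it) and 88.7% of the fallers lower (50.2%). The cells come from the time points of the parallel series, so they are no separate culture from those populations as far as the labels tell.

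Individual genes differed between the cultures. In adherent culture Neurog2 went from 1.19 and 0.963 FPKM to 1.81, 2.19, 6.49 and 10.1 FPKM, and Wnt8a from 43.1 and 36.6 FPKM to 19.4, 14.4, 2.86 and 7.89 FPKM. Fgf5 was at 4.48 and 4.37 FPKM in the earlier and at 3.1 to 8.56 FPKM in the later adherent populations, and Fgf8 was at 1.7 and 0.937 FPKM and then at 1.78 to 2.87 FPKM. Fyn was at 21.4 and 20.6 FPKM in the earlier and at 16.5 to 27.4 FPKM in the later adherent populations. Of 8 cells at each time, Wnt8a was above 0 in 8, 5, 0 and 0 cells at 84, 106, 144 and 216 h, Neurog2 in 0, 0, 2 and 5 cells, and Hes5 in 2, 1, 6 and 7 cells.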

How the data were processed

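Total RNA of whole SFEB populations was sequenced from Nextera XT libraries. The submitters' processing notes name TopHat2 2.0.8b, Cufflinks 2.1.1 and the mm9 build, and the paper's methods name other versions. The authors computed FPKM with Cufflinks and deposited, for the SFEB populations, FPKM values after ComBat batch correction, which are no longer pure FPKM and fall below 0 for 96 of the tested genes (0.794%). The batches given to ComBat are not given in the sources used here. The adherent populations were deposited as FPKM and the single cells as log10 values by the authors. Map1b and Map2 are listed as Mtap1b and Mtap2. A separate file on E14 cells was not used, and 0 columns lacked a sample.

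Values below 0 were set to 0 and log2(FPKM + 1) was tested in limma 3.58.1 (R 4.3.3) for genes above 1 FPKM in at least 4 of 8 populations, with the series as a term, a variance trend and Benjamini-Hochberg adjustment over 12093 genes. Adjusted p values come from this fit. They set a difference against the spread between these populations, each a single library. That spread holds the change over time within a window and may in part be technical. The paper states only a minimum number of reads per library, for the single cells and parallel populations. An exact permutation test of 4 against 4 could not go below 0.0286. Named genes were the 12 largest rises and the 12 largest falls among called genes whose windows did not overlap and whose sign was the same in both series, up to 4 called members of each list by the size of the difference, the markers, the genes of the study's Fyn network, and members that a list's description turns on, called or not; the last were chosen after their values were seen. Some genes that this rule names are not reported here. The members, lists and tests were chosen with earlier results of these data known. Alternatives were another pseudocount, no or a stricter filter, genes with negative values left out, no series term, quantile and median scaling, no variance trend, each series alone and each population left out. Added after seeing the data were 2 more, the common median without the 142 h population and leaving out 84 and 216 h together. The script was tested on simulated data. Promoter windows are from RefSeq on GRCm38.p6 and are separate from the mm9 values. Figures used Python 3.11.15 with matplotlib 3.10.9.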

Additional observations from a re-analysis of the deposited data

Results flagged for a closer look

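In 16 of 352 groups of 4 populations (176 followed genes, 2 windows each), the highest or the lowest population stood far from the other 3 of its window by Dixon's test at the 95% level. Chance flags about 1 in 20 groups, and over all genes tested 4.61% were flagged in the early and 5.62% in the late window. In the early window the 84 h population was the highest for Ccne1 (76.3 FPKM) and Epha1 (16.8 FPKM) and the lowest for Csnk1e (17.7 FPKM) and Dbx1 (0 FPKM). Otx2 was lowest at 92 h (31.8 FPKM), Wnt7b highest at 103 h (14.1 FPKM) and Ptch1 highest at 106 h (35 FPKM). In the late window the 216 h population was the highest for Egr1 (54.9 FPKM) and Fos (23.2 FPKM) and the lowest for Zic5 (2.71 FPKM). The 144 h population was the highest for Ptch1 (50.1 FPKM) and Gli1 (10.8 FPKM) and the lowest for Lhx2 (10.4 FPKM), Neurog1 (6.95 FPKM) and Zfp521 (7.53 FPKM). Fgfr3 was highest at 142 h (25.3 FPKM).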

How the results depend on the processing

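The count of 4038 called genes (2514 higher, 1524 lower) ranged from 268 to 4534 when 1 population was left out, with 175 to 2686 higher and 93 to 1848 lower. The lowest counts were those without the 142 h population. The first series alone gave 602 (423 and 179) and the parallel series alone 1 (1 and 0, with 3102 at an unadjusted p below 0.05), in limma fits with fewer populations. Without the 84 and 216 h populations together 2663 were called (1776 and 887), at a common median 4358 (1719 and 2639), and at a common median without the 142 h population 381 (187 and 194). With at least 2-fold in addition the counts were 1061, 768 and 293. The other settings stayed within 1.5 times of the main counts. No called gene named here changed sign under any setting. Genes that were not called did, and those given here are not all of them. With 1 population left out, Hes1 ranged from -0.1281 to 0.03383 (without 106 h; 0.007318 without 142 h), Sox1 from -0.2086 (without 84 h) to 0.4724, Fos from -0.4482 (without 216 h) to 1.053, Egr1 from -0.6138 (without 216 h; -0.1283 without 106 h) to 0.5999, Col3a1 from -0.03505 (without 216 h) to 1.229, Slc1a3 from -0.1139 (without 216 h; -0.001538 without 106 h) to 0.3535 and Gli1 from -0.6295 to 0.2291 (without 216 h; 0.007931 without 103 h and 0.09334 without 106 h). In the first series alone Otx2 was at 0.02908, Sox1 at -0.2428, Fos at -0.3955, Egr1 at -0.4354, Col3a1 at -0.2286 and Slc1a3 at -0.3573. Eomes, Notch2, Id1, Ccnd1 and Hoxb1 were among the others that changed sign there. Without 84 and 216 h together Sox1 was at -0.236, Fos at -0.3436, Egr1 at -0.4829, Col3a1 at -0.01304 and Slc1a3 at -0.1188. Egr1 was at -0.02539 and Slc1a3 at -0.04032 with quantile normalization, and at a common median they were at -0.05213 and -0.01132. Rbpj was at -0.04124 at a common median and at -0.04333 there without 142 h. The cause was not tested. No paired analysis was possible because the compared windows hold single time points, whose labels carry no replicate number that pairs an early with a late population. The files hold no read counts, so the counting error of low values is not given.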

Other observations

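A few genes differed between the series in both windows and were not called between windows. Lox, a collagen cross-linking enzyme, was at 2.51, 2.48, 2.44 and 3.44 FPKM at 84, 106, 144 and 216 h and at 0 to 0.0134 FPKM in the 4 populations of the first series. S100a4, a calcium-binding protein of fibroblasts, was at 2.93, 2.58, 2.7 and 3.09 FPKM in the parallel series and at 0 to 0.159 FPKM in the first series. Both were chosen after their values were seen, and the series and the batch correction cannot be told apart here.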
